A study of Populus ussuriensis with 12 samples.

Results

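The response of wild-type root tips to polyethylene glycol (PEG) was measured in Populus ussuriensis, a poplar of northeast Asia. It covers 6 of the 12 libraries and 22358 of the 34699 gene identifiers in the deposited table, chosen by a mean of at least 1 FPKM over these 6 libraries. FPKM is the number of reads of a gene scaled to its length and to the depth of the library. The other 12341 identifiers, which lay under that limit, were not tested; the lowest tested gene had a mean of 1.00 FPKM and the highest untested gene 0.9999.

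The WT PEG group held 3 wild-type libraries from plants kept for 7 days on agar medium with 6% PEG6000, and the WT control group held 3 wild-type libraries from plants kept as long on medium without PEG. All plants came from stem segments grown in vitro, were 1 week old at the transfer, and gave the outermost 0.5 cm of their roots. The OE PEG and OE control groups, each of 3 libraries, are taken to carry an overexpressed PuC3H35, a CCCH zinc finger protein. They serve here as libraries in which the wild-type response can be looked up again and with which its size is compared. Their genotype labels give 6 different numbers in the gene name. The labels alone therefore do not settle whether all of them overexpress the same gene or are 1 line. The labels do not state whether the 3 libraries of a group are separate plants or flasks, so the p-values reflect the spread between libraries, which may be technical. The response was sampled at a single time and a single PEG level.

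PEG of high molecular weight stays outside the cell wall and lowers the water potential of the medium, so that roots meet a water deficit without the entry of a salt. Plant roots under water deficit are known to raise abscisic acid signalling, to accumulate solutes and protective proteins such as dehydrins, and to change cell division, cell wall loosening and suberin deposition near the tip. The root tip holds the root cap, the dividing cells of the meristem and the elongating cells behind them, so a whole tip is a mixture of tissues. The table gives identifiers without names or functions and no annotation was used here. Genes are therefore described by their level, size of change, length and place in the numbering. The labelled tissue could not be checked against marker genes.

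Whole reads were recovered from the steps between FPKM values. They came to 27658530, 32259065 and 31666343 in the WT PEG libraries and 27122627, 29818047 and 33170546 in the WT control libraries. At the median gene length of 1834 bp an FPKM of 1 stood for 49.7 to 60.8 reads. Libraries of the same group correlated at 0.9939 to 0.9952 on log2(FPKM + 1) across genes, which are not independent replicates. Between libraries of the same group, chi-square per degree of freedom was 3.03 to 3.97 over genes with at least 20 reads, so no pair agreed within counting noise. Among genes with a mean of at least 5 FPKM, the median coefficient of variation was 4.76% in the WT PEG group and 4.72% in the WT control group.

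Of all tested genes, 62.6% differed between the media, mainly by small amounts. In a limma fit on log2(FPKM + 1), 6384 genes (28.6% of those tested) were called higher under PEG and 7612 (34.0%) lower, at a Benjamini-Hochberg adjusted p under 0.05. Of all called genes, 86.7% changed by less than 2-fold on the FPKM + 1 scale, and the median size of change among called genes was 0.42 on the log2 scale. Since tips were sequenced whole, fewer cells of a type and less RNA per cell cannot be told apart for any gene that fell. Higher genes made up 45.6% of calls, but 51.1% with median-of-ratios scaling and 37.6% with quantile normalization, so the balance of small changes has no settled side.

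Strong changes were mostly increases. At least 2-fold, 1597 genes (7.14% of those tested) rose and 266 (1.19%) fell, 6 rising for each that fell. The excess of rises held in every scaling tried, with 3.37 to 7.25 rising for each that fell. At 4-fold or more, 491 genes rose and 18 fell, and 83 rose 16-fold or more against none that fell so far. These sizes, and all fold limits given later, are on the FPKM + 1 scale, which understates falls to low levels as well as rises from them. The 3 WT PEG libraries lay above the 3 WT control libraries for 1593 of the 1597 risen genes, where this was so for 31.1% of all tested genes. They lay below for 265 of the 266 fallen genes, against 36.7% of all tested genes. The genes were chosen by their change in these same libraries, so this lack of overlap follows largely from the choice and is no test. The 2-fold limit cut through a continuum, with log2 fold changes of 1.0001 and 0.9992 on either side of it among higher genes and of -1.0015 and -0.9998 among lower ones.

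**Figure D1:**
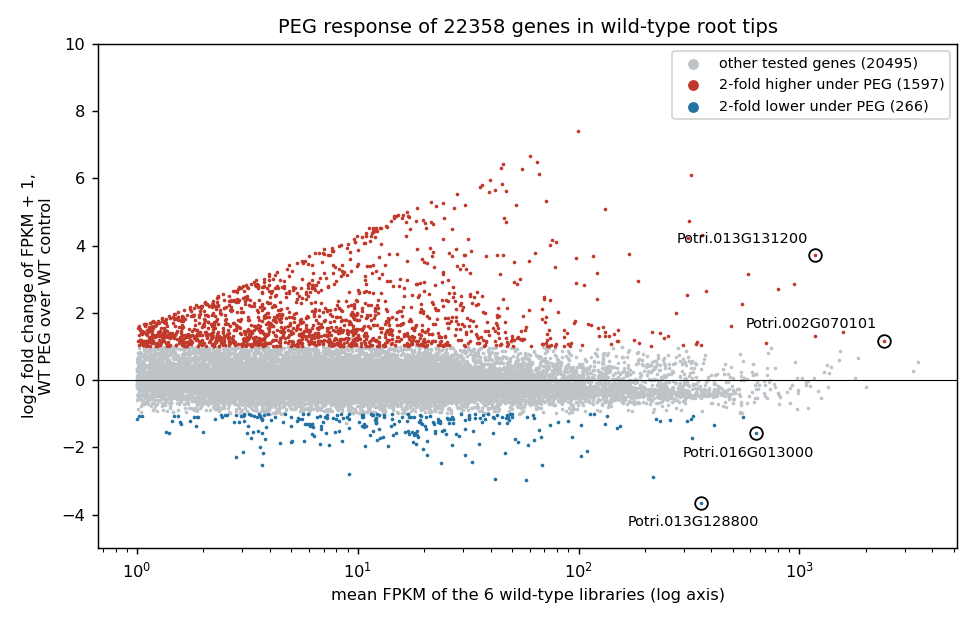
Log2 fold change of FPKM + 1 (WT PEG over WT control, vertical) against the mean FPKM of the 6 wild-type libraries (horizontal, log axis), 1 point per tested gene. The 1597 genes at least 2-fold higher (red) spread up to 7.42, while the 266 at least 2-fold lower (blue) reach -3.65; circles mark the 4 genes described by name.

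Among genes called at least 2-fold higher with groups that do not overlap, Potri.013G131200 had the largest rise in mean FPKM. It is a short gene with a recovered length of 222 bp. It stood at 2137, 2187 and 2240 FPKM in the WT PEG libraries, against 177, 157 and 166 FPKM in the WT control libraries. Every WT PEG library was far above every WT control library, and the ratio of the means was 13.1. The means were 2188 ± 51.4 FPKM under PEG and 167 ± 9.66 FPKM without it (SD, n = 3 each), a log2 fold change of 3.71 (SE 0.04, limma adjusted p = 1.2e-12). By level among all transcripts the gene had rank 6 under PEG and rank 675 on control medium. Between 13124 and 15748 reads stood behind each WT PEG value and between 1041 and 1222 behind each WT control value. Lack of overlap and a large change in these libraries were conditions for choosing the genes described by name. Their separation and p-values are therefore no independent test.

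Potri.002G070101, with a length of 1628 bp, was already among the most abundant transcripts of control roots. It had 3171, 3438 and 3471 FPKM in the WT PEG libraries, against 1477, 1455 and 1556 FPKM in the WT control libraries. The groups did not overlap, as the choice required, and the lowest WT PEG library was the first of the 3. The log2 fold change was 1.17 (SE 0.04, limma adjusted p = 1.6e-09), and the rank was 3 under PEG and 5 without it. With quantile normalization, which forces the libraries to the same distribution, the log2 fold change was 0.55, still called but under 2-fold.

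Among genes called at least 2-fold lower with groups that do not overlap, Potri.016G013000, of 982 bp, had the largest fall in mean FPKM. It had 319, 312 and 326 FPKM in the WT PEG libraries, against 955, 947 and 957 FPKM in the WT control libraries. The libraries of each group were close together, and the groups did not overlap, as the choice required. The log2 fold change was -1.58 (SE 0.03, limma adjusted p = 1.2e-11), and the rank was 224 under PEG against 33 on control medium.

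Potri.013G128800, of 720 bp, was the only gene that fell by 8-fold or more on the FPKM + 1 scale. It had 52.6, 51.2 and 51.9 FPKM in the WT PEG libraries, against 676, 650 and 670 FPKM in the WT control libraries. The groups were far apart beside their spread, and the WT control mean was 12.8 times the WT PEG mean. The log2 fold change was -3.65 (SE 0.03, limma adjusted p = 2.3e-13), and the rank was 2222 under PEG against 66 without it. This gene and the short risen gene Potri.013G131200 carry the same number before the G in their identifiers and changed in opposite directions.

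**Figure D2:**
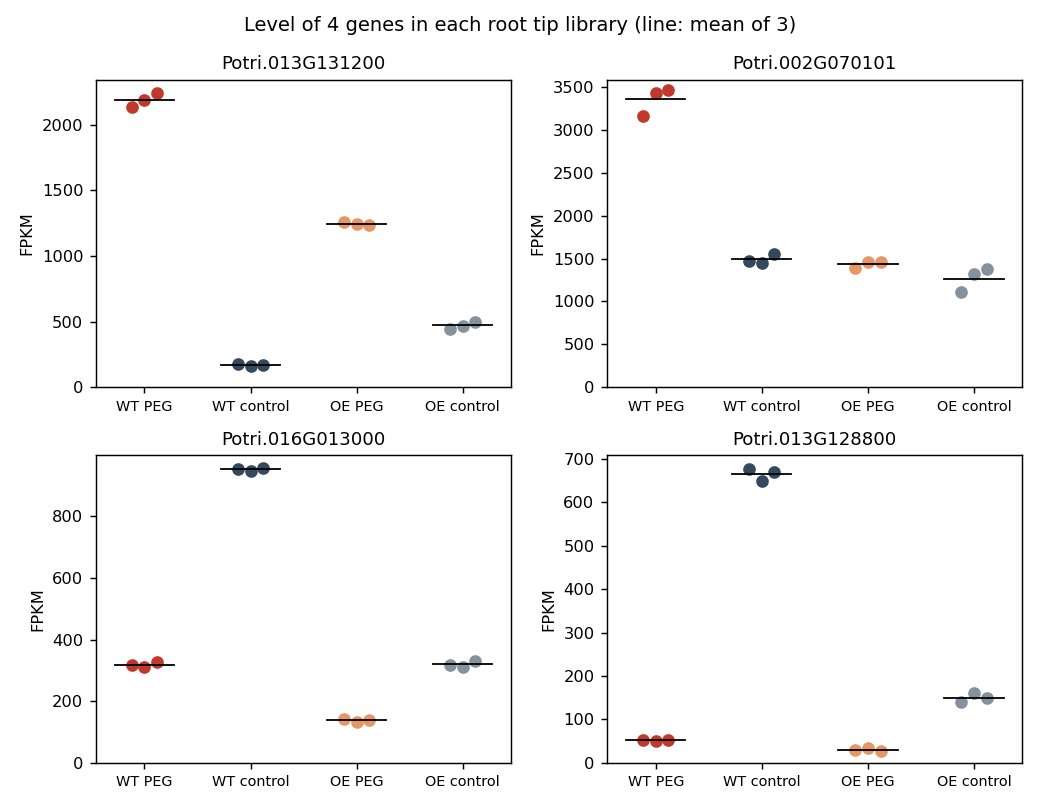
FPKM of the 4 named genes in each library, with the group mean of 3 as a line, for WT PEG, WT control, OE PEG and OE control. The WT PEG points lie above the WT control points for Potri.013G131200 and Potri.002G070101 and below them for Potri.016G013000 and Potri.013G128800. Lack of overlap between these groups was a condition for choosing the genes.

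The largest rises by ratio started from almost nothing. The 20 genes with the largest log2 fold changes, among those with at least 5 FPKM under PEG, rose by 5.21 to 7.42 on the log2 scale. They had 43.0 to 637 FPKM under PEG with a median of 89.3, against 0.0738 to 8.41 FPKM on control medium with a median of 0.399. Of the 1597 genes that rose at least 2-fold, 619 (38.8%) had a control mean under 1 FPKM and a further 561 (35.1%) had 1 to 5. Another 23 (1.44%) started from 100 FPKM or more. Genes with a control mean under 1 FPKM, among the 20 as well, passed the limit for testing only through the WT PEG group. Their number is therefore no test of where rises start. A pseudocount of 1 compresses rises from such low levels and falls to them. With a pseudocount of 0.1, 2079 genes rose 2-fold and 460 fell 2-fold.

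The falls rarely reached so low. The 20 genes with the largest falls, among those with at least 5 FPKM on control medium, had 0.288 to 51.9 FPKM under PEG with a median of 8.01, against 5.36 to 665 FPKM on control medium with a median of 46.0. Of the 266 genes that fell at least 2-fold, 23 (8.65%) ended under 1 FPKM with PEG. Another 109 (41.0%) still had 5 to 20 FPKM under PEG, and 10 (3.76%) still had 100 or more. The 23 genes that ended under 1 FPKM passed the limit for testing only through the WT control group.

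Transcripts found on 1 medium only were mostly weak. Over all 34699 identifiers, 322 had reads in each of the 3 WT PEG libraries and none in the WT control libraries. The converse, reads in each of the 3 WT control libraries and none under PEG, was found for 87. The summed depth of the groups was close, at 91583938 reads under PEG and 90111220 without it. The median gene of the 322 had 21 reads over the 3 WT PEG libraries, and 50 of them had at least 100. The highest reached 12.8 FPKM under PEG. In all, 22 of the 322 passed the limit for testing, which they could do only through the WT PEG group, so their change is no test. The 87 genes seen without PEG had a median of 10 reads over the 3 WT control libraries and at most 99. None of them reached the level for testing. For reads this few, absence on the other medium means only that the gene was not detected at this depth. Recovered reads may also be too low for such genes, as their recovery was not checked.

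In the values as deposited, the direction of calls followed the level of the transcript. Among the 1146 genes with a mean of at least 100 FPKM over the 6 wild-type libraries, 24.8% were called higher and 64.7% lower under PEG. Among the 2335 genes of 1 to 2 FPKM, 31.4% were called higher and 16.3% lower. The median log2 fold change fell across the classes, being 0.06 at 1 to 2 FPKM, 0.01 at 2 to 5, -0.04 at 5 to 20, -0.11 at 20 to 100 and -0.25 at 100 or more. The share at least 2-fold higher was 11.6% in the class of 1 to 2 FPKM and 4.28% at 100 or more, and the share at least 2-fold lower was 0.685% and 1.83% in the same classes. With a pseudocount of 0.1, the share at least 2-fold higher was 20.9% and 4.36% in these classes. The share at least 2-fold lower was then 3.77% and 1.83%, so its order turned round and depends on the pseudocount. More lower than higher calls at 100 FPKM or more were found in all 4 scalings. More higher than lower calls at 1 to 2 FPKM held as deposited, after rescaling to equal FPKM sums and with median-of-ratios scaling. Quantile normalization turned it round, to 21.1% higher and 39.5% lower. With that normalization the medians did not fall steadily, at -0.21, -0.14, -0.09, -0.09 and -0.14 from the weakest class to the strongest. The share at least 2-fold higher was then 5.61% at 1 to 2 FPKM and 7.53% at 2 to 5, so it no longer declined from class to class.

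**Figure D3:**
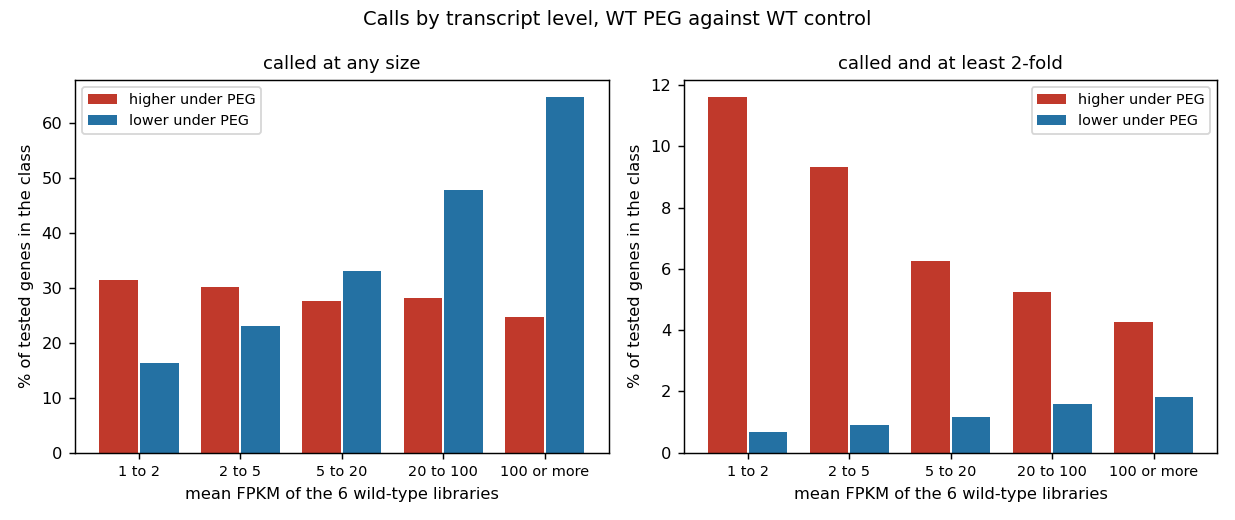
Percent of tested genes called higher (red) or lower (blue) under PEG in wild-type roots, by mean FPKM of the 6 libraries as deposited, at any size (left) and at least 2-fold (right). The share called lower at any size climbs to 64.7% in the class of 100 FPKM or more, while the share at least 2-fold higher declines across classes to 4.28%.

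Abundant genes moved in both directions around a median below 0. In the class of 100 FPKM or more, the lower and upper quartiles of the log2 fold change were -0.42 and 0.08, and the tenth and ninetieth percentiles were -0.58 and 0.52. The 741 genes called lower there had a median length of 1065 bp and the 284 called higher 1272 bp. The genes of this class that were not called had 1166 bp, so all 3 sets were shorter than the 1834 bp over all tested genes. Depth behind this class was high, with a median of 6540 reads per library, against 78.7 in the class of 1 to 2 FPKM. The median standard error of the log2 fold change was 0.03 in the class of 100 FPKM or more and 0.12 in the class of 1 to 2 FPKM. Of the 100 most abundant transcripts under PEG and the 100 on control medium, 70 were the same.

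The 1597 risen genes took a larger part of the transcript pool under PEG. They made up 9.41%, 9.55% and 9.60% of the FPKM sum in the WT PEG libraries, against 2.40%, 2.39% and 2.41% in the WT control libraries. The 266 fallen genes made up 0.844%, 0.841% and 0.843% in the WT PEG libraries, against 2.31%, 2.29% and 2.31% in the WT control libraries. The genes were chosen by this same contrast, so the shares describe its size and are not a test. The largest part of the pool that shrank belonged to the 7346 genes that fell by less than 2-fold, at 43.8 ± 0.10% under PEG and 56.6 ± 0.085% without it (SD, n = 3 each). The 4787 genes that rose by less than 2-fold made up 25.8 ± 0.18% under PEG and 18.9 ± 0.037% without it (SD, n = 3 each). Within the 1597, 10 genes gave 27.5% and 100 genes 59.6% of the summed FPKM rise.

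Genes next to a strongly changed gene in the numbering had changed alike more often than tested genes at large. In identifiers of this style the number before the G stands for a chromosome and the serial number runs along it. Among tested genes next to a gene that rose 2-fold, 19.0% had also risen 2-fold, beside 7.14% of all tested genes. Next to a gene that fell 2-fold, 10.1% had fallen 2-fold, beside 1.19%. In all, 346 (21.7%) of the risen genes and 33 (12.4%) of the fallen genes had a direct neighbour in the same list. There were 24 runs of 3 or more risen neighbours, the longest of 5, and 2 runs of 3 or more fallen neighbours, the longest of 4. No matching counts were made over all tested genes, so these counts and runs have no background beside them. Neighbouring genes can be near-identical copies whose reads may have been shared between them in the counting, and the sources used here do not say how such reads were treated. Across the 19 chromosome numbers, the share of tested genes that rose 2-fold ran from 4.71% on chromosome 18 to 9.87% on chromosome 7. The share that fell ran from 0.58% on chromosome 13 to 1.86% on chromosome 17.

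Strong responders had shorter recovered lengths than the average gene. Recovered lengths may be too small for genes with few reads, and the part of this in the difference was not tested. The median length was 1354 bp for genes that rose 2-fold and 1366 bp for genes that fell 2-fold, against 1834 bp over all tested genes. Of the genes from 500 to 1000 bp, 13.4% rose 2-fold, and of those of 4000 bp or more, 1.93%. The shares that fell were 1.61% and 0.0553% in the same classes. Over all tested genes, length and signed fold change were almost unrelated, with a Spearman's rho of 0.04 across genes.

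The same genes were then read in the OE libraries, which took no part in choosing them. Over all 22358 genes, a limma fit on the 6 OE libraries alone called 29.7% higher and 34.4% lower under PEG. The same call was more frequent the larger the change in wild type. Of the 83 genes that rose 16-fold or more in WT, 82 (98.8%) were called higher in OE and none lower. Of the 1106 genes that rose 2- to 4-fold, 77.2% were called higher in OE and 9.13% lower. Of the 3444 genes called higher in WT at under 1.5-fold, 39.2% were called higher in OE and 29.9% lower, beside 29.7% and 34.4% over all tested genes. Of the 248 genes with a fall of 2- to 4-fold, OE showed a fall for 67.3% and a rise for 17.7%. Of the 6237 genes with a fall under 1.5-fold, it showed a fall for 43.7% and a rise for 17.4%.

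**Figure D4:**
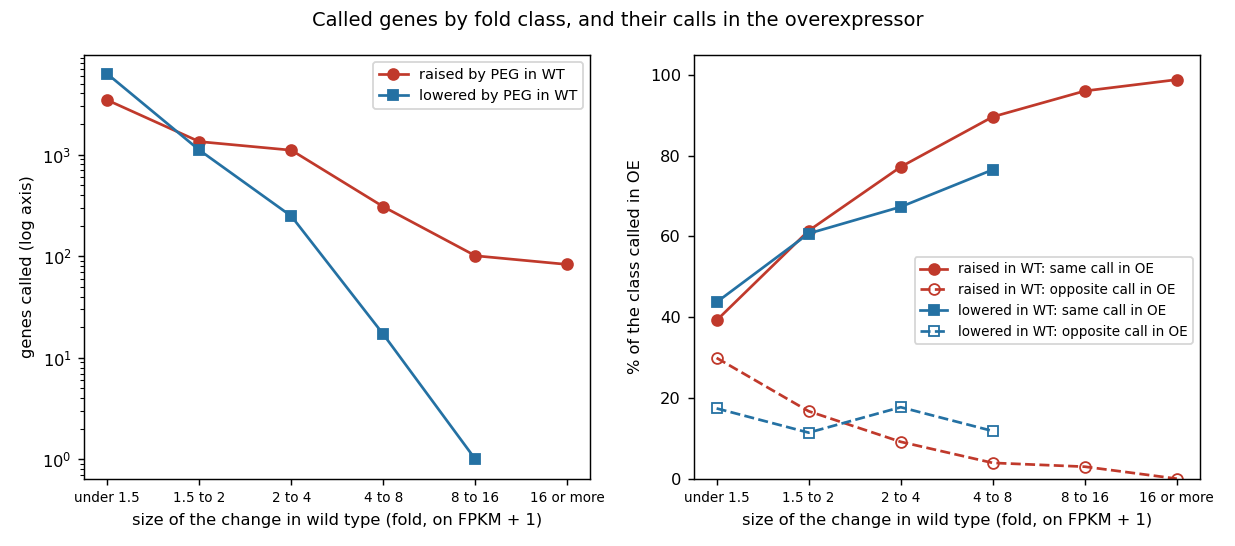
Left, number of genes called higher (red circles) or lower (blue squares) under PEG in wild type by size of the change, on a log axis. Right, percent of each class called in the same direction (filled, solid) or in the opposite one (open, dashed) in the OE libraries, for classes of at least 17 genes; the same-direction share of risen genes climbs from 39.2% to 98.8%.

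The pool shares moved in the same direction in the OE libraries. The 1597 genes made up 10.2%, 10.3% and 10.2% of the FPKM sum in the OE PEG libraries, against 4.30%, 4.45% and 4.40% in the OE control libraries. The 266 genes made up 1.06%, 1.05% and 1.07% in the OE PEG libraries, against 1.90%, 1.93% and 1.91% in the OE control libraries. With 3 libraries against 3, an exact permutation test of either share could not go below p = 0.1, and the groups did not overlap.

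**Figure D5:**
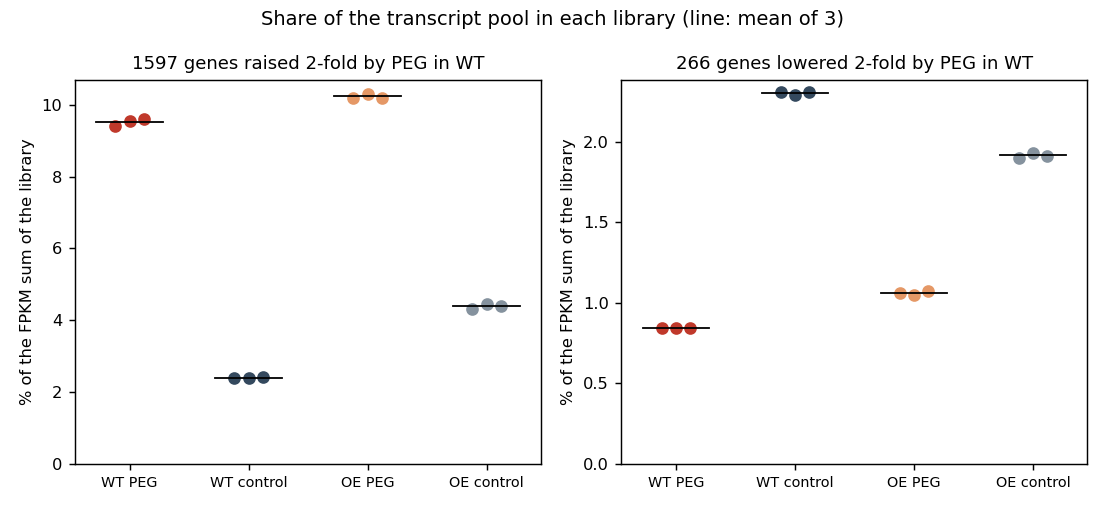
Percent of the FPKM sum of each library held by the 1597 genes that rose (left) and the 266 that fell (right) at least 2-fold under PEG in wild type, with group means as lines. In the OE libraries, which did not choose the genes, the risen set stands at 10.2% to 10.3% under PEG and 4.30% to 4.45% without it.

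The fall of abundant transcripts was not found in the OE libraries as deposited. Among the 1146 genes of 100 FPKM or more, the OE fit called 36.2% higher and 35.6% lower. Their median log2 fold change was 0.02 in OE, against -0.25 in WT. In the fit over all 12 libraries, the PEG effect in WT minus that in OE was called below 0 for 641 (55.9%) and above 0 for 308 (26.9%) of these genes, where 56.5% of all tested genes were called in either direction. The median of this difference was -0.21 on the log2 scale. It was -0.22 with median-of-ratios scaling, but -0.08 after rescaling to equal FPKM sums and 0.01 after quantile normalization. Quantile normalization also turned the balance of calls round, with 388 below 0 and 457 above, so the difference between genotypes in abundant transcripts has no settled size. FPKM sums were 610202 to 611296 in the WT PEG libraries, against 616629 to 623973 in the WT control libraries. They were 661656 to 665551 in the OE PEG libraries, against 612376 to 619319 in the OE control libraries.

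The 4 named genes had smaller changes in OE. Their log2 fold changes there were 1.40 for Potri.013G131200, 0.19 for Potri.002G070101, -1.21 for Potri.016G013000 and -2.26 for Potri.013G128800. The genes were chosen on their change in WT, which enters the difference between the genotypes, so its tests are not independent of that choice. The difference from WT was called for each by limma over the 12 libraries, with adjusted p-values between 1.6e-12 and 1.1e-05, and was lost for Potri.016G013000 with quantile normalization (adjusted p = 0.063). Potri.013G131200 stood at 1258, 1240 and 1237 FPKM in the OE PEG libraries, against 446, 470 and 496 FPKM in the OE control libraries. Potri.002G070101 stood at 1388, 1459 and 1460 FPKM in the OE PEG libraries, against 1105, 1323 and 1375 FPKM in the OE control libraries. Potri.016G013000 stood at 141, 132 and 139 FPKM in the OE PEG libraries, against 319, 312 and 329 FPKM in the OE control libraries. All 3 moved in the direction they took in WT, though Potri.002G070101 by little (limma adjusted p = 0.044 in the 6 OE libraries). Potri.013G128800 stood at 29.8, 33.3 and 28.2 FPKM in the OE PEG libraries, against 140, 160 and 150 FPKM in the OE control libraries. It too moved in the direction it took in WT. Both Potri.016G013000 and Potri.013G128800 were lower in every OE library than in every WT control library.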

How the data were processed

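Root tip RNA of 12 libraries was analysed, of which the 6 wild-type libraries carry the main comparison, WT PEG over WT control. The authors deposited FPKM values for each library. The submitters' processing notes name HISAT2 2.1.0, Bowtie2 2.2.3 and HTSeq 0.6.0 without saying what each did. Genome build, gene annotation, strandedness and the handling of multi-mapping reads are not stated in the sources used, so values of near-identical copies are uncertain. Reads and lengths were recovered from the FPKM steps with numpy 2.4.6; whether a read is a mate or a pair is not known, and 115 tested genes had a recovered length under 200 bp.

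FPKM is not a count, so limma 3.58.1 in R 4.3.3 was fitted to log2(FPKM + 1) with a mean-variance trend, 6 libraries and 4 residual degrees of freedom. Tests are two-sided, with adjustment over 22358 genes. The scripts were tested on simulated data, but recovered lengths and reads were not checked there for genes with few reads. The shortest length that gave whole reads was taken, so lengths and reads of such genes may be too small. The OE fit used the 6 OE libraries alone, and the difference between genotypes all 12. Named genes are the 2 with the largest rise and the 2 with the largest fall in mean FPKM among genes called 2-fold with groups that do not overlap. Members, lists and tests were chosen with earlier results of these data known. Alternatives were the pseudocount, filter, scaling, variance model, voom on recovered reads, libraries, threshold, replicate block and each library left out. Scalings of the calls by level and the OE fit were added after seeing the data.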

Additional observations from a re-analysis of the deposited data

Results flagged for a closer look

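The PEG effect differed between WT and OE for each of the 4 named genes, by the limma test of the difference on log2(FPKM + 1) over 12 libraries. The effect in WT minus that in OE was 2.31 for Potri.013G131200 (SE 0.06, adjusted p = 1.6e-12) and 0.98 for Potri.002G070101 (SE 0.09, adjusted p = 5.0e-07). It was -0.36 for Potri.016G013000 (SE 0.05, limma adjusted p = 1.1e-05) and -1.39 for Potri.013G128800 (SE 0.08, adjusted p = 2.4e-09). With quantile normalization the difference of Potri.016G013000 was -0.12 and was not called (limma adjusted p = 0.063); over a pseudocount of 0.1, the same FPKM sum and median-of-ratios scaling its adjusted p ran from 1.4e-05 to 4.0e-04. The 4 genes were chosen for a large change in WT, which favours a larger effect there, and 56.5% of all tested genes were called for this difference.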

How the results depend on the processing

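Of 141 values recomputed under other settings, 138 kept their direction and side of the adjusted p threshold or stayed within 1.5 times the reported count. Many of the 141 were log2 fold changes of the named genes, which were chosen for large changes. That these kept their call is therefore little of a test. The 3 that moved were counts at 2-fold: 460 genes fell with a pseudocount of 0.1 and 490 with voom on recovered reads, against 266, and 888 rose at a minimum mean of 5 FPKM, against 1597, where fewer genes were tested. By size, Potri.002G070101 also dropped below 2-fold with quantile normalization, at a log2 fold change of 0.55 against 1.17. Calls by level and differences between WT and OE were not among the 141. Some of those turned round or lost their call with quantile normalization, as given above. All of the 1597 and 266 genes were called in the same direction with voom. Leaving out 1 library at a time gave 1586 to 1619 genes risen and 252 to 277 fallen at 2-fold, and 5990 to 6086 higher and 6843 to 7383 lower at any size. No label says that replicate numbers pair the libraries, so the numbers were not taken as pairs. Same-numbered WT PEG and WT control libraries deviated from their group means with correlations of -0.051 to -0.029. A replicate block gave 1598 genes risen and 267 fallen at 2-fold. Weak genes are limited by depth, with a median of 78.7 reads per library at 1 to 2 FPKM.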
